A study of Homo sapiens with 15 samples.

Results

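Genes for small nucleolar RNAs (SNORA and SNORD), Cajal body RNAs (SCARNA) and spliceosomal RNAs (RNU) were examined in condensates pelleted from U2OS cytosolic extract. A gene was taken if its symbol began with one of these 4 stems and if 2 or more replicates of any condition reached 10 counts. This left 78 of 2366 genes with such names, among 20855 genes kept by the same filter and 57500 in the files. They comprised 12 SNORA, 27 SNORD and 7 SCARNA genes, 4 RNU genes and 28 RNU pseudogenes. U2OS is a human osteosarcoma cell line, and its genotype was given as wild type in the labels, whereas the study names the condensates after YFP-G3BP1, a fluorescent fusion of a stress granule protein. Every sample was cytosolic extract of these cells or a pellet from it. Extracts stood for 2 h at 37 °C without addition (mock) or with 1% PEG, a molecular crowder, silvestrol, which blocks the helicase eIF4A, at 2 µg/ml, or 250 nM dsRNA, and each was then spun to collect condensates. The input was extract that had not been pelleted. Each of the 5 conditions had 3 biological replicates, and poly(A)-selected RNA was sequenced in all 15 libraries. The identity of the cell line was not checked against marker genes.

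Box C/D small nucleolar RNAs guide 2′-O-methylation of ribosomal RNA, H/ACA RNAs guide its pseudouridylation, and a few of them, such as U3, take part in cutting the precursor of ribosomal RNA. Cajal body RNAs guide the same changes on spliceosomal RNAs, which form the core of the splicing machinery with Sm and LSm proteins. In human cells most small nucleolar RNAs are trimmed from introns of host genes, lack a poly(A) tail and act in the nucleus, so that poly(A)-selected libraries of cytosolic extract hold few reads of them. Reads on such a gene can also come from unspliced or spliced RNA of the host that spans it.

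Total counts per library ran from 15341973 to 46939993 with a median of 35584710, and replicate 1 of the input and the 3 PEG libraries had the lowest totals. Deviations of replicate 1 from its group mean correlated negatively with those of replicates 2 and 3 of other groups (from -0.568 to -0.0828). The sign of these correlations over all genes is partly set by the calculation, because deviations from a group mean cancel out within the group. The 78 genes together received between 0.00445% and 0.011% of a library. The median gene had 155.5 counts summed over 15 libraries, and 53 of the 78 had under 200. The filter was passed in all 5 conditions by 13 genes and in 1 condition by 19, of which 4 passed in PEG pellets alone and 5 in input alone. A gene that passed in 1 condition alone was chosen for being high there, so counts over the 78 genes are descriptions of this list. At the edge of the filter, the second-highest count in the best condition was 10 for 9 of the genes and 9 for 8 genes that were left out.

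By annotation, 46 genes lay in an intron of a gene on the same strand, 11 in an intron of a gene on the opposite strand, 13 between genes, and 8 overlapped an exon of another gene. A same-strand host could be tested for 51 of them, and these had 42 different hosts. Ribosomal protein genes hosted 10. Of 41 genes of known role that had been listed, 14 were kept, and the genes of U1, U2, U4, U5, U7, U11 and U12 RNA were not among them. All 4 of the RNU genes kept were copies of U6, the RNA at the catalytic centre of the spliceosome.

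Sequences are given 5′ to 3′ on the strand of the gene, from GENCODE 29 on GRCh38, for the genes whose values carry the comparisons. The first set holds box C/D RNAs that were higher (SNORD104, SNORD100, SNORD14A) or lower (SNORD17, SNORD116-1) in PEG pellets than in input. Capitals mark the C box TGATGA in the first 20 bases and the D box CTGA in the last 20. SNORD104 lies at chr17:64146083-64146152 (plus strand) in an intron of SNHG25, SNORD100 at chr6:132816802-132816877 (plus strand) in an intron of RPS12, SNORD14A at chr11:17074654-17074744 (minus strand) in an intron of RPS13, SNORD17 at chr20:17962710-17962946 (minus strand) in an intron of SNX5, and SNORD116-1 at chr15:25051477-25051571 (plus strand) in an intron of SNHG14.
SNORD104: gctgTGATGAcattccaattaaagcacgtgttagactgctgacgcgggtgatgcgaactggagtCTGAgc
SNORD100: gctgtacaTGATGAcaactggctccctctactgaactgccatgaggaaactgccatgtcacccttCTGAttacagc
SNORD14A: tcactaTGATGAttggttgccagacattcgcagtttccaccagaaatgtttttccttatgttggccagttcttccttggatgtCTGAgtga
SNORD17: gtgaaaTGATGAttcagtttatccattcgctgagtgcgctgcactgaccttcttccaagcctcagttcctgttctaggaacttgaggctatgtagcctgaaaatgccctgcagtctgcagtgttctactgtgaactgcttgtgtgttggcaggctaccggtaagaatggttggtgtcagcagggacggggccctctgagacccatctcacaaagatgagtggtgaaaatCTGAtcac
SNORD116-1: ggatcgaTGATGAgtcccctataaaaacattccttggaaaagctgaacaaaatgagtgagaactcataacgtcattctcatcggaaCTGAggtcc

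A C box at this place was found in 21 of the 27 SNORD genes, against 65.3% of 314 SNORD genes of any level, and a D box in 24 of 27, against 90.1%. Matches are to these letters on the gene's own strand and are descriptions of the annotated sequence.

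The second set holds H/ACA RNAs that were higher in PEG pellets, SNORA33 at chr6:132817219-132817348 (plus strand) in an intron of RPS12 and SNORA73B at chr1:28508559-28508762 (plus strand) in an intron of RCC1. Capitals mark an ACA in the 3 bases that end 3 bases before the last, which SNORA33 as annotated does not have.
SNORA33: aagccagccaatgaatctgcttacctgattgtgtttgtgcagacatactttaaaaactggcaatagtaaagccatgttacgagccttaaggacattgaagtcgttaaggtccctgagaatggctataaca
SNORA73B: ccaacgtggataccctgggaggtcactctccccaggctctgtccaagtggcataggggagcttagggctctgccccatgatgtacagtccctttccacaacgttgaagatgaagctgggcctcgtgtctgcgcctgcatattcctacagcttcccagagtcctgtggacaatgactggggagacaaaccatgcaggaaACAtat

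Among the 12 SNORA genes kept, 10 had an ACA in this window, against 66.7% of 216, and all 12 held the H box letters ANANNA, against 98.1%.

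The Sm-type letters ATTTTTG or ATTTGTG were found in 2 of the 32 RNU genes and pseudogenes, against 24.0% of 1811, and 26 of the 32 were U6 copies. RNU6-725P, a pseudogene between genes with the highest level per length of the RNU genes over 15 libraries, shared 73.8% of its bases with RNU6-1. The sequence of RNU6-1 was shared in full by 7 annotated genes, 6 of them among the 78, and 9 of the 26 RNU6 genes kept were at least 95% identical to it. A read that lies within such a copy has no single origin, and how reads with several matches were counted is not given in the sources used here, so values of single U6 copies are uncertain.

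SNORD104, a box C/D RNA that guides methylation of ribosomal RNA, gave the highest level per length of the 78 genes, at 462.1 CPM per kb averaged over 15 libraries. CPM are counts scaled to the TMM-adjusted size of the library. SNORD104 stood at 20.4, 17.6 and 19.6 CPM in input, at 14.6, 23.4 and 12.9 in mock pellets, and at 72.8, 89.0 and 104.4 in PEG pellets. The 3 PEG pellets were above every other library, while mock and input overlapped. With dsRNA it stood at 15.7, 26.2 and 18.6 CPM and with silvestrol at 11.1, 21.3 and 17.6, and both overlapped with mock. In PEG pellets it was higher than in input by 2.24 on the log2 scale (SE 0.158, adjusted p = 0.000147, edgeR quasi-likelihood test, n = 3 per group) and higher than in mock by 2.43 (SE 0.219, adjusted p = 6.57e-06). It received between 62.3% and 71.6% of the counts of the 78 genes in PEG pellets and between 34.1% and 37.8% in input.

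The share of a library on the 78 genes accordingly differed in PEG pellets (plot of the share by library). It was 0.0102% ± 0.000655 (SD, n = 3) in PEG pellets, 0.00524% ± 0.000392 in input and 0.00525% ± 0.000851 in mock. PEG did not overlap with input or mock, and the two-sided exact permutation p was 0.1 for each, the smallest that 3 against 3 libraries can give. Without SNORD104 the share was 0.00329% ± 0.000409 in PEG pellets and 0.00335% ± 0.000336 in input, and the groups overlapped (exact permutation p = 0.8). Shares and CPM are relative to the rest of a library, so that more RNA of a gene in a pellet and less of the others cannot be told apart.

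**Figure D1:**
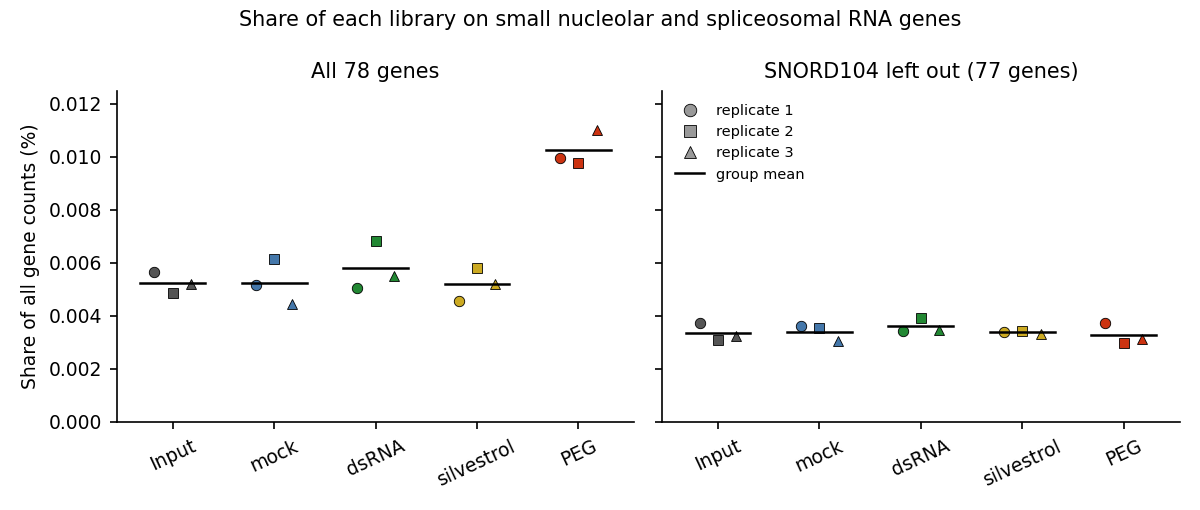
Share of all gene counts (%) in each of 15 libraries, by condition, for the 78 genes (left) and without SNORD104 (right), with a marker shape for each replicate and a line at the group mean. On the left the 3 PEG pellets sit between 0.00978% and 0.011%, above the other libraries, and on the right all 5 conditions overlap.

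PEG pellets held 16 of the 78 genes at a higher level than input and 8 at a lower level (adjusted p under 0.05), while 54 did not pass. Over all genes tested 21.0% were called higher and 21.9% lower in this comparison. The median log2 fold change was -0.41 over the 78 genes and -0.05 over all genes. With library size alone as the scale, which moved the median of all genes from -0.05 to -0.391, 9 of the 78 were higher and 18 lower, against 11.4% and 36.1% of all genes. Leaving out the genes that had 3 counts or fewer in a group kept 15 of the higher and 4 of the lower calls. Among the 13 genes that passed the filter in all 5 conditions, 8 were higher and 1, SNORD17, was lower. These 13 had to reach 10 counts in PEG libraries, which had low totals, and 24 of the 78 genes did so. That choice favours genes that are high with PEG (median 0.9 over the 13), so the count describes this list alone.

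By class, 3 of 12 SNORA, 8 of 27 SNORD and 5 of 7 SCARNA genes were higher in PEG pellets than in input, and none of the 4 RNU genes and 28 RNU pseudogenes was. Lower calls were made for 1 SNORA gene, 4 SNORD genes and 3 RNU pseudogenes. For comparison, 21.0% of all genes were called higher and 21.9% lower. Of the higher genes, SCARNA7, SCARNA10 and SNORD38A had passed the filter in PEG pellets alone, the group where they were high. Of the lower genes, SNORD3B-2 had passed it in input alone. At an unadjusted p under 0.05 in edgeR, 0 of the 4 RNU genes and 7 of the 28 RNU pseudogenes differed in either direction. The class medians ran from -0.70 for RNU pseudogenes to 1.45 for SCARNA genes.

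**Figure D2:**
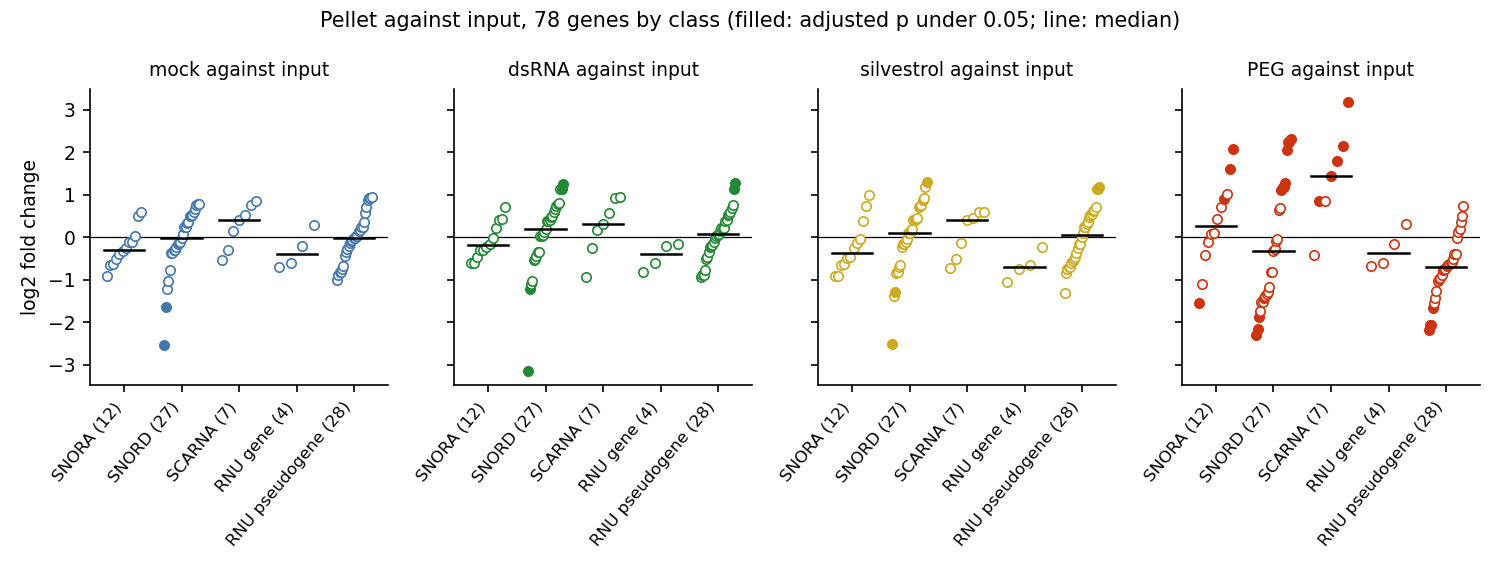
log2 fold change of each of the 78 genes in mock, dsRNA, silvestrol and PEG pellets against input, by class with the number of genes in brackets, where filled points had an adjusted p under 0.05 and lines mark class medians. Filled points number 2, 6, 6 and 24 from left to right, and in PEG pellets 5 of the 7 SCARNA genes are filled and above 0.

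U3 RNA, the box C/D RNA of early ribosomal RNA processing, is encoded by several copies, and the 3 copies kept gave different values. SNORD3A (chr17:19188016-19188714, between genes) stood at 0.639, 0.355 and 0.87 CPM in input, at 0.426, 0.512 and 0.394 in mock and at 5.35, 2.31 and 2.17 in PEG pellets. The PEG pellets lay above every other library, with replicate 1 the highest. SNORD3A was higher in PEG pellets than in input by 2.30 (SE 0.435, adjusted p = 0.00236) and than in mock by 2.73 (SE 0.38, adjusted p = 0.000118). SNORD3B-2 (chr17:19063346-19064136) went the other way, with 21, 24 and 35 counts in input, 8, 2 and 1 in mock, 2, 3 and 0 with dsRNA, 3, 6 and 3 with silvestrol and 2, 2 and 2 with PEG. Each of the 4 pellets was lower than input, by -2.53 in mock (SE 0.502, adjusted p = 0.0103), -3.15 with dsRNA (adjusted p = 0.00331), -2.52 with silvestrol (adjusted p = 0.00376) and -2.17 with PEG (adjusted p = 0.00344). These 4 comparisons share the input libraries, and SNORD3B-2 passed the filter in input alone.

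SNORD3B-1 had 17, 23 and 34 counts in input, was lower with dsRNA by -1.21 (SE 0.333, adjusted p = 0.0242) and with silvestrol by -1.29 (SE 0.408, adjusted p = 0.0438), and did not pass in mock (-1.21, adjusted p = 0.0568) or PEG pellets (-0.82, adjusted p = 0.113). The SNORD3B-1 calls were lost when some single libraries were left out, replicate 3 of the input among them. The first 200 bases of SNORD3A differed from those of both other copies at 1 base, and SNORD3B-1 and SNORD3B-2 were identical over the first 266. The annotated genes are 699, 758 and 791 bases long and between 86.9% and 93.7% identical over their whole length, so that the division of reads between them is uncertain. Summed over the 3 copies, the level was 1.34, 2.38 and 2.81 CPM in input and 2.63, 2.73 and 5.96 in PEG pellets, from lowest to highest, and the groups overlapped. The sums ran from 0.592 to 1.04 CPM in mock, 0.898 to 1.41 with dsRNA and 0.745 to 1.15 with silvestrol, and mock and silvestrol lay below every input.

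The other genes with a part in processing of ribosomal RNA were higher in PEG pellets. SNORD14A, a copy of U14 RNA, stood at 1.15, 1.29 and 0.981 CPM in PEG pellets, at 0.365, 0.46 and 0.645 in input and at 0.260, 0.317 and 0.197 in mock. The PEG libraries were above all input and mock libraries. The difference was 1.11 from input (SE 0.316, adjusted p = 0.0177) and 1.91 from mock (SE 0.335, adjusted p = 0.000576), and the call against input was lost without replicate 2 of input or of PEG. SNORA73B, a copy of U17 RNA, stood at 3.36, 2.73 and 2.63 CPM in PEG pellets, at 1.74, 1.34 and 1.63 in input and at 1.32, 1.10 and 0.958 in mock. It was higher by 0.90 than in input (SE 0.239, adjusted p = 0.013) and by 1.35 than in mock (SE 0.253, adjusted p = 0.000912), and its groups did not overlap in either comparison, but the call against input was lost without replicate 2 of input. With library size alone as the scale, neither gene passed against input.

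**Figure D3:**
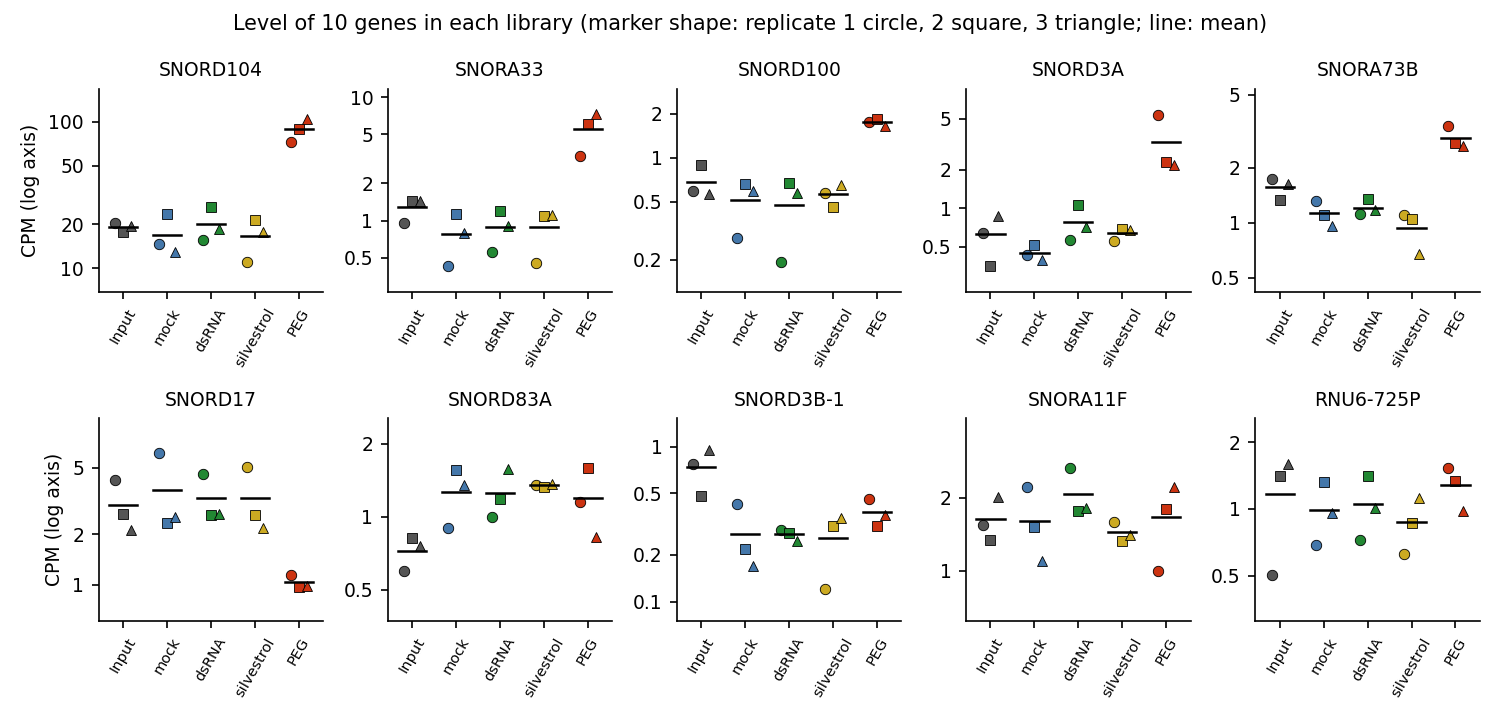
CPM (log axis) of 10 genes in each of 15 libraries, by condition, with circles, squares and triangles for replicates 1, 2 and 3 and a line at the group mean. SNORD104, SNORA33, SNORD100, SNORD3A and SNORA73B lie highest in the 3 PEG pellets, SNORD17 lies lowest there at 0.977 to 1.15 CPM, SNORD83A is lowest and SNORD3B-1 highest in input, and SNORA11F and RNU6-725P overlap between PEG pellets and input.

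Guide RNAs in ribosomal protein genes were mostly higher with PEG. Of the 10 genes hosted by ribosomal protein genes, 7 were higher than in input, 3 did not pass, and none was called lower (edgeR, where 8 of the 10 had an unadjusted p under 0.05 in either direction). Their summed level was 10.3, 14.7 and 14.4 CPM in PEG pellets and between 4.07 and 5.48 in input. SNORA33 in RPS12 stood at 3.36, 6.02 and 7.28 CPM in PEG pellets, at 0.959, 1.44 and 1.43 in input and at 0.426, 1.12 and 0.789 in mock. It was higher than in input by 2.08 (SE 0.293, adjusted p = 0.000583), where its host RPS12 was higher by 1.34 (SE 0.172, adjusted p = 0.000397). SNORD100, in another intron of RPS12, stood at 1.76, 1.85 and 1.65 CPM in PEG pellets and at 0.594, 0.899 and 0.561 in input, a difference of 1.27 (SE 0.283, adjusted p = 0.00543). SNORD101, the third RNA in RPS12, had 0, 4 and 3 counts in PEG pellets and 10, 15 and 16 in input, and its value was -1.16 (SE 0.504, adjusted p = 0.09).

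SNORA3B in RPL27A was higher by 1.6 (adjusted p = 0.00892), SNORD15B in RPS3 by 1.18 (adjusted p = 0.0425), and SNORA66 in RPL5 was at 0.10 (adjusted p = 0.875). SNORD15B lost its call under DESeq2, with library size alone, with the replicate block, with the block and GC offset and without the low-count filter. That call was also lost in 4 of 6 fits that left out 1 library. SNORA3B lost its call without replicate 2 of PEG. SNORD83A in RPL3 stood at 0.594, 0.815 and 0.757 CPM in input and was higher with silvestrol, at 1.35, 1.33 and 1.37 CPM, by 0.87 (SE 0.232, adjusted p = 0.0231). It did not pass with mock (0.79, adjusted p = 0.0702), dsRNA (0.78, adjusted p = 0.0536) or PEG (0.68, adjusted p = 0.113), and silvestrol differed from mock by 0.09 (SE 0.248).

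SNORD17, a long box C/D RNA in SNX5, was the clearest case of a lower level with PEG. It stood at 1.15, 0.977 and 0.981 CPM in PEG pellets, at 4.20, 2.63 and 2.13 in input and at 6.15, 2.34 and 2.54 in mock. Replicate 1 was the highest in every condition, and the PEG libraries lay below all the others. The difference from input was -1.44 (SE 0.321, adjusted p = 0.00549) and that from mock -1.73 (SE 0.398, adjusted p = 0.00337), and both calls held when any single library was left out. SNX5 itself was higher with PEG than in input by 0.48 (SE 0.154, adjusted p = 0.0282). Per 1000 reads of SNX5 there were 6.28 ± 0.519 (SD, n = 3) reads of SNORD17 in PEG pellets and 24.4 ± 4.8 in input (exact permutation p = 0.1, the smallest possible).

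SNORD104 followed its host more closely, with 4100 ± 454 reads per 1000 reads of SNHG25 in PEG pellets and 3220 ± 714 in input (exact permutation p = 0.2). SNHG25 was itself higher by 1.87 (SE 0.25, adjusted p = 0.000468). SNORD60 lies in SNHG19 and shares its place with RF00345, a second annotation, and its difference of 2.06 (SE 0.348, adjusted p = 0.00134) stood beside 2.00 for the host. SNORD62B had 0, 1 and 1 counts in PEG pellets against 10, 30 and 13 in input, a ratio 13.1 times lower (95% counting interval 3.44 to 111), and its host PRRC2B was lower by -1.42 (adjusted p = 0.0041). SNORA71B was lower by -1.56 (SE 0.435, adjusted p = 0.0164) although its host SNHG17 was higher by 1.13 (adjusted p = 0.000309). The SNORA71B call was lost without replicate 2 of input or of PEG. Counting intervals cover counting error alone.

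Across the 51 genes with a tested host, 31 had the sign of the host in PEG pellets against input, and the Spearman correlation of the log2 fold changes was 0.44. These points share libraries, and some share a host, so the value is a description. Of the 19 genes called, 13 had a host called in the same direction, 4 a host called in the other, and 2 a host that did not pass. The 4 were SCARNA7, SCARNA20, SNORD17 and SNORA71B. Against mock, 16 of 23 called genes had a host called in the same direction, 3 a host called in the other, and 4 a host that did not pass. Reads of a host that span the gene are counted on the gene if they fall in an intron, and their part in these values was not tested.

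Of the 7 Cajal body RNA genes, 5 were higher in PEG pellets than in input, where 21.0% of all genes were, and 2 of the 5, SCARNA7 and SCARNA10, had passed the filter in PEG alone. By position, 5 of the 8 genes that overlap an exon and 11 of the other 70 were higher, and 4 of the 7 Cajal body RNA genes overlap an exon. SCARNA7 in an intron of KPNA4 had 17, 10 and 5 counts in PEG pellets, against 0, 1 and 0 in input and 1, 4 and 2 in mock. The ratio to input was 65.0 (95% counting interval 10.9 to 2650), and the difference from mock was 2.56 (SE 0.562, adjusted p = 0.00254). KPNA4 was lower than in input by -0.95 (adjusted p = 0.0048). SCARNA10, which lies in NCAPD2 and overlaps an exon of AC006064.5, had 30, 5 and 15 counts in PEG pellets, 5, 4 and 10 in input and 5, 5 and 3 in mock. It was higher than input by 2.14 (SE 0.667, adjusted p = 0.0259) with overlapping groups, a call lost without replicate 1 or 3 of PEG or replicate 2 of input, and higher than mock by 2.74 (SE 0.619, adjusted p = 0.00304).

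SCARNA13, which lies in SNHG10 and overlaps an exon of GLRX5, stood at 0.994, 0.823 and 0.723 CPM in PEG pellets and at 0.274, 0.188 and 0.140 in input, a difference of 1.80 (SE 0.371, adjusted p = 0.00368). SCARNA12, which overlaps an exon of PHB2, was higher by 0.85 (SE 0.289, adjusted p = 0.0381), beside 0.83 for PHB2, and this call was lost when any PEG library was left out. SCARNA20 was higher by 1.45 (SE 0.446, adjusted p = 0.0247) with its host USP32 lower by -0.70, and this call was lost in 3 of 6 fits that left out 1 library, with library size alone and with the GC offset. SCARNA9, which lies in CEP295 and overlaps the annotations RF00493 and RF00494, had 12, 3 and 4 counts in PEG pellets and 1, 14 and 8 in input and did not pass (0.86, SE 0.707, adjusted p = 0.354). SCARNA22 in NSD2 did not pass either, at -0.41 (SE 0.441).

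The SNORD116 genes lie in tandem within SNHG14 in the imprinted region of chromosome 15, and their RNAs have no established ribosomal RNA target. The 6 copies kept were between 81.2% and 99.0% identical to each other, and SNORD116-4 overlaps an exon of SNHG14 over 85.4% of its length, so that spliced host reads can fall on it. Their summed counts were 11, 3 and 2 in PEG pellets, 37, 55 and 68 in input and 103, 51 and 48 in mock. In PEG pellets the summed level was 0.841, 0.154 and 0.103 CPM, below all 12 other libraries, of which the lowest was at 1.15 CPM. All 6 had negative values against input, from -1.88 to -0.28, and 1 passed, SNORD116-1, with 0 counts in every PEG library and 21 in input. At a floor of 3 counts over the group this was at least 3.45-fold lower than input and at least 4.22-fold lower than mock. The SNORD116-1 call against input was lost without replicate 3 of input or replicate 2 of PEG, and DESeq2 gave it no adjusted p. Against mock 4 of the 6 were lower, where 27.6% of all genes were, and 3 of these, SNORD116-2, SNORD116-6 and SNORD116-24, lost the call under DESeq2 and in 3, 4 and 5 of 6 fits that left out 1 library. SNORD116-24 also lost it with the replicate block (adjusted p = 0.0629, edgeR). SNHG14 was lower by -1.31 (SE 0.138, adjusted p = 1.75e-05). With silvestrol SNORD116-7 was higher than input by 1.30 (SE 0.401, adjusted p = 0.0397), from 1, 2 and 4 counts to 12, 8 and 10, a call lost in 5 of 6 fits that left out 1 library.

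**Figure D4:**
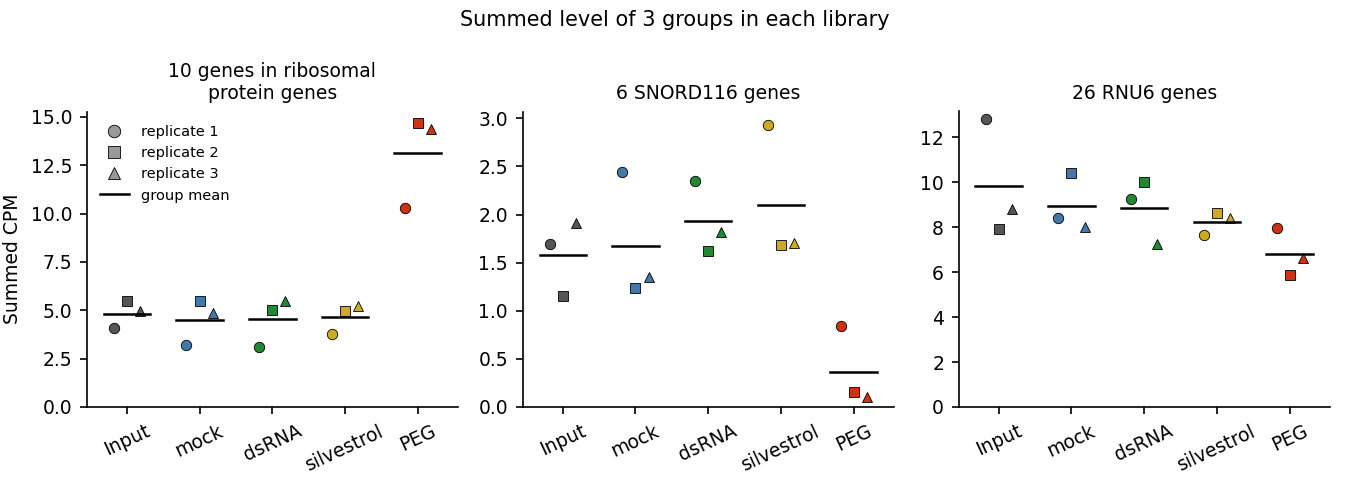
Summed CPM in each of 15 libraries of the 10 genes hosted by ribosomal protein genes, the 6 SNORD116 genes and the 26 RNU6 genes, by condition, with a marker shape for each replicate and a line at the group mean. The PEG pellets lie above all other libraries for the first, at 10.3 to 14.7 CPM, below them for the second, at 0.103 to 0.841 CPM, and overlap with the others for the third.

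The 26 RNU6 genes and pseudogenes together stood at 7.95, 5.86 and 6.61 CPM in PEG pellets and at 12.8, 7.94 and 8.81 in input. PEG replicate 1 overlapped with the lowest input library, while the other 2 lay below all inputs. The 9 copies at least 95% identical to RNU6-1 gave no call in PEG pellets against input, with values from -2.07 to 0.30. RNU6-1 had 6, 0 and 5 counts in PEG pellets and 12, 7 and 5 in input, and RNU6-2 had 7, 3 and 11 against 32, 20 and 11. RNU6-9 had 4, 3 and 12 counts against 29, 8 and 12, and RNU6-8 had 9, 14 and 12 against 18, 22 and 15. RNU6-8 was higher than mock by 0.95 (SE 0.339, adjusted p = 0.0341), a call lost under DESeq2, without the low-count filter, with library size alone, with the replicate block (adjusted p = 0.0546), with the block and GC offset, and in 4 of 6 fits that left out 1 library. RNU6-45P, another of the 9, was lower than mock, with 1, 2 and 1 counts in PEG pellets and 19, 19 and 17 in mock. That call held in every alternative. Within input, replicate 1 held the highest counts of RNU6-2 and RNU6-9.

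Among the more diverged U6 copies, 2 of 17 were lower in PEG pellets than in input, where 21.9% of all genes were. These 2 were chosen here after their values were seen. RNU6-77P had 1, 0 and 1 counts in PEG pellets and 11, 16 and 15 in input, a ratio 10.3 times lower (95% counting interval 2.69 to 88.5). RNU6-216P had 1, 1 and 0 against 10, 23 and 15, a ratio 11.8 times lower (3.1 to 100.0), while SPCS2, in whose intron it lies on the opposite strand, was higher by 0.53. The third RNU pseudogene that was lower, RNU2-27P, had 2, 3 and 3 counts against 10, 31 and 31 (-1.67, SE 0.396, adjusted p = 0.00743). Whether reads were counted by strand is not given in the sources used here, so reads of RNU6-216P or RNU2-27P and of the gene opposite each cannot be told apart.

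RNU6-725P, which lies between genes, stood at 1.53, 1.34 and 0.981 CPM in PEG pellets and at 0.502, 1.4 and 1.6 in input, and the groups overlapped (0.13, SE 0.428, adjusted p = 0.835). SNORA11F, an H/ACA RNA in an intron of NUDT13 on the opposite strand, stood at 0.994, 1.80 and 2.22 CPM with PEG and at 1.55, 1.34 and 2.02 in input, with a difference of 0.09 (SE 0.312, adjusted p = 0.844). Both were among the 10 most abundant genes and gave no call in any of the 7 comparisons.

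PEG pellets were also set against mock pellets, which asks what the crowder added to material that sedimented without it. Here 16 of the 78 genes were higher and 14 lower, against 27.0% and 27.6% of all genes, with medians of -0.05 and -0.074. With library size alone as the scale, 14 were higher and 19 lower, against 15.6% and 46.1% of all genes. Of the lower genes, 4 had over 3 counts in both groups. The largest differences among the more abundant genes were 2.79 for SNORA33 (SE 0.353, adjusted p = 6.06e-05), 2.73 for SNORD3A and 2.43 for SNORD104. SNORD100 was higher by 1.71 (SE 0.329, adjusted p = 0.0011).

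Mock, dsRNA and silvestrol pellets differed from input in few of these genes. In mock pellets none of the 78 was higher and 2 were lower, SNORD3B-2 and SNORD93, where 13.0% of all genes were called higher and 13.1% lower. At an unadjusted p under 0.05, edgeR gave 9 of the 78 in either direction. After adjustment DESeq2 called 0, but it gave no adjusted p for 65 of the 78. SNORD3B-2 and SNORD93 were among these 65, so DESeq2 could not have called them. SNORD93, a box C/D RNA in an intron of SNHG26, had 4, 1 and 2 counts in mock and 11, 9 and 10 in input (-1.64, SE 0.464, adjusted p = 0.0344), a call lost in 4 of 6 fits that left out 1 library. Both genes passed the filter in input alone, the group where they were high. Blocking on replicate number gave 3 higher and 7 lower genes, against 26.7% and 25.9% of all genes in that fit, and SNORD83A (0.82, adjusted p = 0.00656) and SNORD3B-1 (-1.24, adjusted p = 0.00421) were among those gained.

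With dsRNA 4 genes were higher and 2 lower than in input, against 16.3% and 15.9% of all genes, and with the block 7 and 4, against 25.8% and 24.6%. SNORD63B, a box C/D RNA in HSPA9, stood at 0.728, 1.2 and 1.06 CPM with dsRNA and at 0.594, 0.355 and 0.421 in input, a difference of 1.14 (SE 0.32, adjusted p = 0.0258), and HSPA9 was at -0.41 (adjusted p = 0.109). SNORD94, RNU6-850P and RNU6-1263P were the others, with differences of 1.26, 1.13 and 1.28. Each of the 4 calls was lost in at least 4 of 6 fits that left out 1 library. The 2 lower genes were SNORD3B-1 and SNORD3B-2.

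With silvestrol 4 genes were higher and 2 lower than in input, against 14.9% and 15.1% of all genes, and with the block 5 and 5, against 25.3% and 24.7%. The higher genes were SNORD83A, SNORD116-7, RNU6-45P (1.18, SE 0.309, adjusted p = 0.0214) and RNU6-1263P (1.15, SE 0.358, adjusted p = 0.0413). Each call was lost in at least 4 of 6 fits that left out 1 library. RNU6-1263P had passed the filter with silvestrol alone, the group where it was called higher. SNORD116-7 had passed it with silvestrol, but not in input, mock or PEG pellets. The lower genes were again SNORD3B-1 and SNORD3B-2. RNU6-45P is 96.3% identical to RNU6-1.

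Set directly against mock, neither dsRNA nor silvestrol gave a call. Over all genes 0.0% were called for dsRNA against mock and 0.0% for silvestrol against mock. At an unadjusted p under 0.05 edgeR gave 2 of the 78 genes in each comparison, and DESeq2 gave 0 for dsRNA and 1 for silvestrol, none of which passed after adjustment. With the replicate block SNORD104 passed for dsRNA against mock, at 0.26 (adjusted p = 0.037), and none of the 78 passed for silvestrol. Under the block 0.211% of all genes were called higher and 2.33% lower for dsRNA against mock. The 78 values ran from -0.71 to 0.76 for dsRNA and from -1.28 to 0.70 for silvestrol.

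The mRNAs of proteins that bind or assemble these RNAs were counted beside them, from a list of 52 that were all tested. In PEG pellets 37 of the 52 were higher than in input and 4 lower, with a median of 0.85, against 21.0% and 21.9% of all genes. In mock pellets 1 was higher and 27 lower, with a median of -0.55, against 13.0% and 13.1%. With dsRNA 1 was higher and 31 lower, against 16.3% and 15.9%, and with silvestrol 1 was higher and 27 lower, against 14.9% and 15.1%. LSM7, a subunit of the LSm ring that binds U6 RNA, was higher with PEG by 2.01 (SE 0.164, adjusted p = 0.000147), and ZNHIT6, a factor in box C/D RNP assembly, was lower by -0.74 (SE 0.178, adjusted p = 0.00818). LSM3 was lower by -1.54 in mock, -1.68 with dsRNA and -1.72 with silvestrol (adjusted p = 0.00748, 0.00356 and 0.00307). GEMIN4, a protein of the SMN complex, was higher by 0.73, 0.81 and 0.85 in the same order. Against mock, 44 were higher in PEG pellets and 3 lower, where 27.0% and 27.6% of all genes were, with LSM7 at 2.44 and GEMIN4 at -0.76 (adjusted p = 2.23e-06 and 0.00196).

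Nuclear RNAs were also present in the extracts. Of the nuclear markers listed, MALAT1, NEAT1 and KCNQ1OT1 could be tested and RN7SK was listed at 0 in every library. Their summed level was between 782 and 1080 CPM in input, 937 and 1580 in mock and 703 and 1270 in PEG pellets. In PEG pellets MALAT1 was higher than in input by 1.44 (SE 0.214, adjusted p = 0.000733), NEAT1 was lower by -0.96 (SE 0.231, adjusted p = 0.00784), and KCNQ1OT1 did not pass (-0.58, adjusted p = 0.0984). None of the 3 passed in mock, dsRNA or silvestrol pellets. RN7SL2, an RNA of the signal recognition particle without a poly(A) tail, was higher than in input with PEG by 3.31 (SE 0.486, adjusted p = 0.000695), with dsRNA by 1.06 and with silvestrol by 1.30, and in mock it stood at 1.97 (SE 0.668, adjusted p = 0.0625). The part of nuclear RNA in the values of the 78 genes was not tested.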

How the data were processed

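Libraries were made from input extract and from mock, dsRNA, silvestrol and PEG pellets, 3 biological replicates each, after poly(A) selection and random hexamer priming. For each library the authors deposited whole-number read counts for each gene, with no normalisation. The submitters' processing notes name Trimmomatic 0.36, STAR 2.5.2b, featureCounts from Subread 1.5.2 and GRCh38. Strand and multi-mapping settings are not given in the sources used here. Symbols, positions and sequences came from GENCODE 29, in which 56898 of 57500 identifiers were found. Of the 78 genes, 2 were named through a table of gene names.

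A gene was kept if 2 or more replicates of any condition reached 10 counts. Counts were TMM-normalised and tested in edgeR 4.0.16 under R 4.3.3 by the quasi-likelihood F test on the 6 libraries of each of 7 comparisons, over all 20855 genes, with Benjamini-Hochberg adjustment and a threshold of 0.05. Log2 fold changes used a prior count of 2, and their SE was derived from the F statistic. The edgeR step was tested on simulated data. Shares were compared by two-sided exact permutation tests. With 3 libraries a group these cannot go below 0.1.

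The members and lists were chosen with earlier results of these data known. Named were, in each comparison, the 3 largest rises and falls among called genes whose average log2 CPM was 0 or more and whose groups did not overlap, the 10 most abundant genes, listed genes of known role, their hosts, and the largest rise and fall of the protein list. SNORA3B, SNORD15B, SNORD60, SNORD62B, SNORD63B, SNORD93, SNORD94, SNORD101, SNORA66, SNORA71B, SCARNA20, SCARNA22, the SNORD116 genes and other RNU pseudogenes were named after their values were seen. Same-numbered libraries of input, mock, dsRNA and silvestrol deviated together in every pair (correlations over all genes from 0.327 to 0.739), as numbered in the labels, and were taken as paired in the replicate block. Same-numbered pairs with a PEG library were more weakly correlated, from 0.0583 to 0.261. Libraries of replicate 2 and replicate 3 of different groups were also positively correlated, from 0.0461 to 0.396. Alternatives were DESeq2 1.42.0 and its size factors, library size, other filters, 1 fit of all groups, the block, a GC offset and each library left out. Some genes and sequences are not reported here.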

Additional observations from a re-analysis of the deposited data

Results flagged for a closer look

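In 8 of the 21 small RNA genes named by rule, the values of PEG and of mock pellets against input had opposite signs. In these 8, PEG also differed from mock in the direct test (edgeR quasi-likelihood test, adjusted p under 0.05, n = 3 per group). Both comparisons share the input libraries, and in none of the 8 did mock itself pass against input. With the replicate block SNORA33 did (-0.64, adjusted p = 0.033, edgeR). SNORA33, SNORD3A, SNORD104 and SNORD17 had been named for their rise or fall in PEG against mock, so their passing the direct test was set by that choice. SCARNA10 had passed the filter in PEG alone. In the direct test 27.0% of all genes were called higher and 27.6% lower. The share of all genes with such opposite signs is not given here. PEG was above mock by 2.79 on the log2 scale in SNORA33, by 2.74 in SCARNA10, by 2.73 in SNORD3A, by 2.43 in SNORD104, by 1.91 in SNORD14A, by 1.71 in SNORD100 and by 1.35 in SNORA73B. It was below mock by -1.73 in SNORD17. In mock against input the values were -0.65 for SNORA33, -0.54 for SCARNA10, -0.38 for SNORD3A, -0.13 for SNORD104, -0.78 for SNORD14A, -0.37 for SNORD100, -0.40 for SNORA73B and 0.35 for SNORD17.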

How the results depend on the processing

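Counts of the 78 genes called higher or lower, in edgeR unless named, moved as follows. In mock pellets against input, with 0 higher and 2 lower in the report, library size alone gave 1 higher, the fit of all 5 groups 2 and 4, the replicate block 3 and 7, the GC offset 1 and 1, the block with the GC offset 4 and 4, and DESeq2 and the filter of 10 counts in each of 5 conditions 0 lower. With dsRNA, 4 and 2 became 1 and 1 under DESeq2, 1 and 0 under that filter, 7 and 4 with the replicate block and 8 and 4 with the block and the GC offset, and 2 were higher without a filter. With silvestrol, 4 and 2 became 1 and 0 under the filter, 2 and 5 in the fit of all 5 groups and 7 and 4 with the block and the GC offset, DESeq2 gave 1 higher, no filter 2 higher, library size alone 1 lower and the replicate block 5 lower. In PEG pellets, 16 and 8 became 9 and 18 with library size alone and 8 and 1 under the filter, and 13 were lower without a filter, 15 in the fit of all 5 groups and 4 without genes that had 3 counts or fewer in a group, an alternative added after the data were seen, as was leaving out SNORD104. For PEG against mock, 16 and 14 became 6 and 1 under the filter, with 7 lower under DESeq2 and 4 lower without those genes. The filter leaves 13 of the 78 genes, all of which had to reach 10 counts in PEG libraries, a choice that favours genes high with PEG. For dsRNA against mock the replicate block gave 1 higher, with and without the GC offset. With the replicate block 15 genes were higher and 9 lower in PEG against input, and 15 and 10 against mock. Without SNORD104 the difference in share reversed to -6.07e-05 percentage points for PEG against input and -0.000109 against mock. DESeq2 gave no adjusted p for 65, 58, 52 and 17 of the 78 in mock, dsRNA, silvestrol and PEG against input. The cause of these changes was not tested. Leaving out 1 library at a time gave 0 to 2 higher and 1 to 4 lower for mock, 0 to 3 and 1 to 3 for dsRNA, 0 to 3 and 1 to 3 for silvestrol, 10 to 16 and 6 to 13 for PEG, 13 to 17 and 9 to 11 for PEG against mock, and 0 for dsRNA and silvestrol against mock. The differences in share then ran from -0.000442 to 0.000405 percentage points for mock, 4.42e-05 to 0.000926 for dsRNA, -0.000366 to 0.000262 for silvestrol, 0.00463 to 0.00524 for PEG, 0.0046 to 0.00544 for PEG against mock, 3.91e-05 to 0.000996 for dsRNA against mock and -0.000459 to 0.000388 for silvestrol against mock. In PEG pellets 8 higher and 6 lower calls held in every alternative that gave a p, and SNORD3B-2 did so in the other 3 pellets. Of 2243 values of the named genes under alternatives, 40 were no longer called, 28 became called and 0 reversed. Low counts limit most of these genes, and labels do not name a batch.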

Other observations

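Of the 41 listed genes of known role, 27 did not reach the filter and entered no comparison. For 11 of these no read was counted in any library, among them SNORD118 (U8), SNORD13, SNORA73A, RNU2-1, RNU7-1 and RNU12. The highest total among the 27 was 55 counts over 15 libraries, for RNU4-2, which reached 19 in a single library. RNU1-1 had 10 counts in all and RNU4-1 had 47. Among all 2366 genes with these names, 1369 had no count in any library and 919 had counts but did not reach the filter. RMRP had 15 counts in all libraries and VTRNA1-1 had 12.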
